A study of Solanum lycopersicum with 12 samples.

Results

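A set of 240 tomato loci had, in roots of plants sprayed with the biostimulant PSI-475, at most 12.5% of their level in roots of plants sprayed with water. They were chosen by that difference itself, with a mean of at least 7 FPKM in untreated root as the other condition. FPKM are fragments scaled to the length of the locus and to the fragments of the library, so levels of different loci are on a scale per length. The table held 35976 loci, and 10393 of them reached 7 FPKM in untreated root. One further locus, Solyc04g051360.3, met both conditions and is left out of the set by definition. Because the root libraries chose the loci, the root values below are a description and carry no test.

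The plants were tomato (Solanum lycopersicum) of the genotype given as WT. The 4 groups were PSI-475 root, untreated root, PSI-475 leaf and untreated leaf, with 3 libraries in each. PSI-475 was sprayed on the foliage at 2.5 mL per L when plants were 65 days old, 1 day before salinity began, and a repeat spray followed 27 days into salinity. Untreated plants received water as the spray, and all 4 groups were irrigated with 50 mM NaCl (5.8 dS per m), so no group was free of salt. Root or young leaf was taken at 127 days, 2 h after the light period ended, and 30 mg of ground tissue was extracted. Nothing in the labels ties the libraries of a group to different plants. The p-values below therefore reflect the variation among these libraries alone, and that variation may be technical. In such bulk tissue, fewer cells of a type and less RNA per cell cannot be told apart.

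Roots meet saline water directly and carry much of the plant's exclusion, transport and storage of ions, as well as the barriers of wall material around their inner tissues. Biostimulants are preparations given in small amounts to change growth or stress tolerance without serving as a fertilizer. Tomato locus identifiers of the Solyc scheme name the chromosome and then number the loci along it, so close numbers stand for neighbouring loci, and runs of neighbours in plant genomes often arise as tandem copies of one gene. The loci below carry identifiers only, so no function is attached to them and no tissue marker was looked up.

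Of the 240 loci, 232 had identifiers of the tomato scheme, 7 were numbered loci outside it and 1 had a non-coding RNA identifier. The library totals ran from 17108347 to 22993130 fragments. The 240 loci and the one left out made up 2.32% of the loci reaching 7 FPKM in untreated root, a share that the selection itself fixes.

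In root the set had a median of 2.21 FPKM with PSI-475 and of 37.8 FPKM in untreated root. Means ran from 0.0380 to 414 FPKM in PSI-475 root and from 7.003 to 4264 FPKM in untreated root. The level left in PSI-475 root had a median of 6.98% of the untreated level, with quartiles of 3.60% and 9.72% and a range of 0.131% to 12.4%. Over all loci reaching 7 FPKM in untreated root the median was 114%. Of the 240 loci, 112 were at least 16-fold lower, 51 at least 32-fold, 18 at least 64-fold and 10 at least 100-fold.

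Low in root did not always mean silent. In PSI-475 root 76 of the 240 loci averaged under 1 FPKM, while 50 still averaged at least 10 FPKM. In untreated root 68 loci averaged at least 100 FPKM and 79 averaged under 20 FPKM. The PSI-475 and untreated root libraries overlapped at 0 of the 240 loci, which the choice of loci largely fixes. At 188 loci the lowest untreated library was at least 8 times the highest PSI-475 library. The smallest such ratio, 4.28, belonged to the non-coding RNA identifier, which had 0.386, 0 and 2.01 FPKM in PSI-475 root and 12.1, 8.61 and 10.8 FPKM in untreated root.

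**Figure D1:**
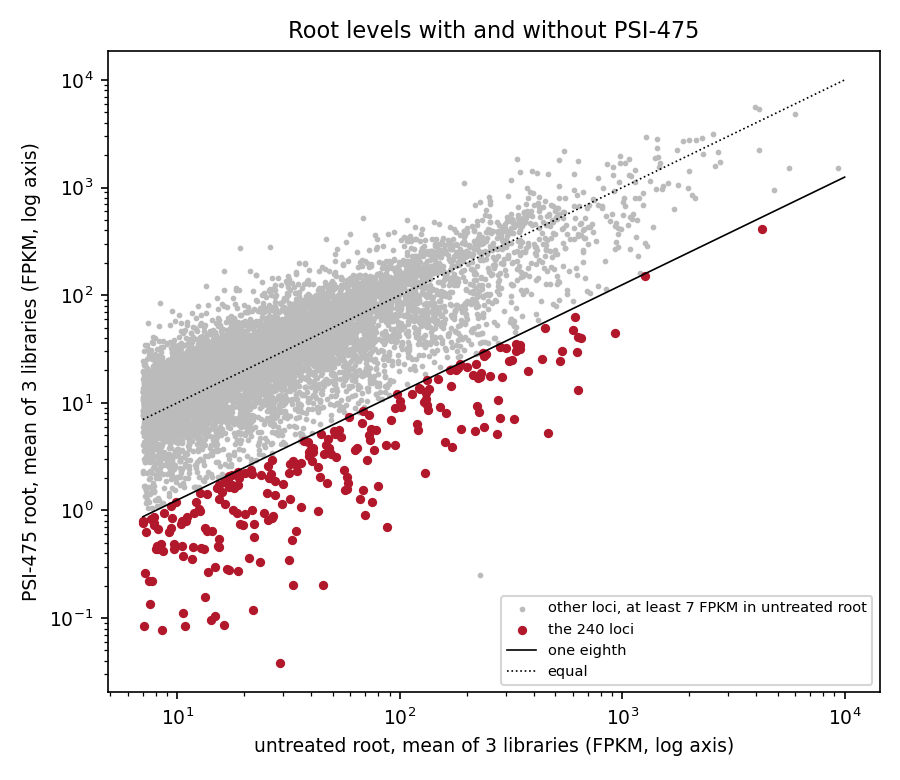
Each point is a locus reaching 7 FPKM in untreated root, placed by its mean in untreated root (horizontal, FPKM, log axis) and in PSI-475 root (vertical, FPKM, log axis), with the 240 chosen loci in red. They lie below the solid line at 12.5% of the untreated level and span 7.003 to 4264 FPKM on the horizontal axis, and the 1 grey point under the line is the left-out Solyc04g051360.3.

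As a share of all fragments the set was small with PSI-475 and sizeable without it. The 240 loci held 0.283%, 0.258% and 0.247% of the fragments of the PSI-475 root libraries, against 3.75%, 3.74% and 3.76% of those of the untreated root libraries. The means were 0.263 ± 0.0183% in PSI-475 root and 3.75 ± 0.0138% in untreated root (SD, n = 3 each). In untreated root the largest locus held 6.71% of the set's fragments and the 10 largest held 32.3%, so the share did not rest on a single locus.

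The spread between libraries differed between the root groups. The coefficient of variation had a median of 20.7% over the 240 loci in PSI-475 root and of 3.92% in untreated root. Counting alone gives 14.1% at the median of 50.5 fragments per library in PSI-475 root and 3.17% at the median of 994 fragments in untreated root. PSI-475 root replicate 1 held the highest value of its group at 118 loci, replicate 2 at 67 and replicate 3 at 55. In untreated root the numbers were 82, 77 and 81. The median level left in PSI-475 root stayed between 6.30% and 7.08% when any 1 root library was left out.

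Solyc01g095140.3 had the highest untreated root level of the set. It was at 460.0, 431 and 353 FPKM in PSI-475 root, against 4270.0, 4172 and 4350.2 FPKM in untreated root. The PSI-475 root libraries were 10.3-fold lower on average, yet all 3 were still higher than any of the untreated leaf libraries, which had 161, 206 and 177 FPKM. Solyc06g050140.1 followed, with 167, 146 and 140.2 FPKM in PSI-475 root and 1278, 1275 and 1260.5 FPKM in untreated root. Its fold difference of 8.41 lay close to the limit of the selection.

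Solyc12g057060.2 had 43.5, 47.6 and 42.9 FPKM in PSI-475 root and 925, 908 and 948 FPKM in untreated root. Solyc09g098160.3 had 16.6, 12.6 and 10.5 FPKM in PSI-475 root and 637, 629 and 642 FPKM in untreated root, which is 48.1-fold lower. That was the deepest difference among the 10 loci highest in untreated root, whose other fold differences ran from 8.41 to 21.3. Both loci were low in leaf, with 1.39 ± 0.128 FPKM in PSI-475 leaf and 3.16 ± 1.11 FPKM in untreated leaf for Solyc12g057060.2, and 1.35 ± 0.623 and 0.833 ± 0.342 FPKM for Solyc09g098160.3 (SD, n = 3 each).

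The rest of these 10 had the following means. Solyc10g055200.1 averaged 39.9 ± 7.07 FPKM in PSI-475 root and 649 ± 21.3 FPKM in untreated root, Solyc04g071770.3 averaged 40.7 ± 7.97 and 635 ± 29.0 FPKM, and Solyc02g081030.3 averaged 29.4 ± 2.59 and 625 ± 6.47 FPKM. Solyc12g056250.2 averaged 63.3 ± 1.81 FPKM in PSI-475 root and 611 ± 8.54 FPKM in untreated root, Solyc04g011750.3 averaged 47.7 ± 6.24 and 599 ± 14.2 FPKM, and Solyc08g083280.3 averaged 30.2 ± 3.37 and 537 ± 5.77 FPKM (SD, n = 3 each). Their leaf levels were spread widely. Solyc04g011750.3 was nearly absent from leaf at 0.237 and 0.226 FPKM in PSI-475 and untreated leaf, while Solyc12g056250.2 was at 71.6 and 65.8 FPKM there.

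**Figure D2:**
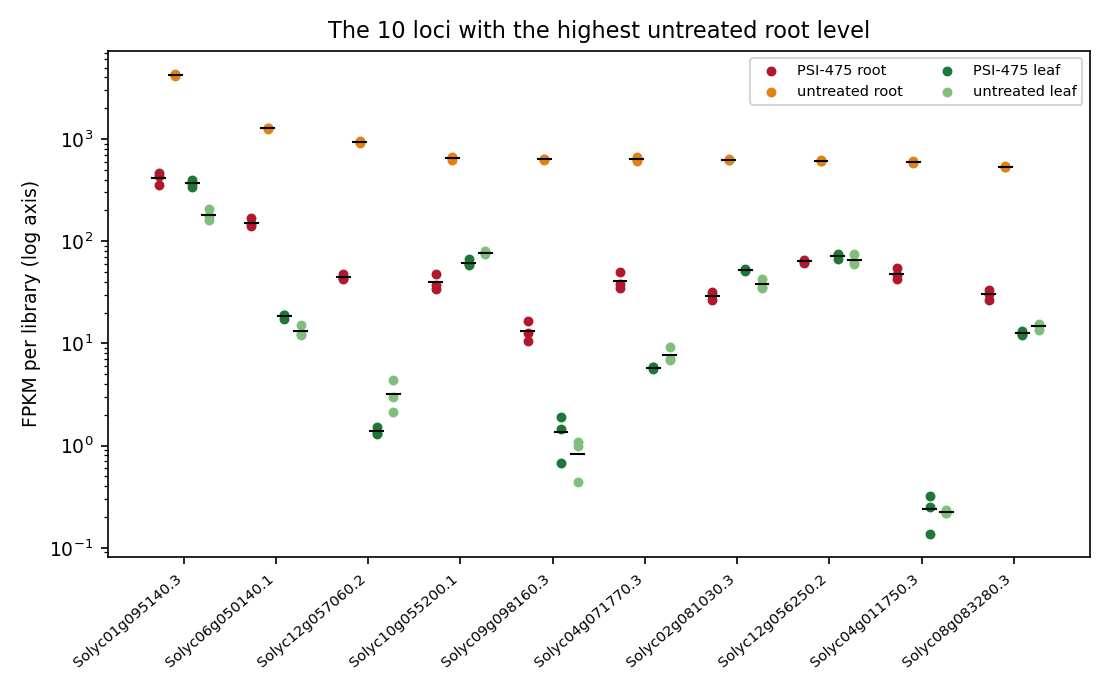
FPKM (log axis) of the 10 loci highest in untreated root, 1 point per library in each of the 4 groups, with a short bar at each group's mean. For Solyc01g095140.3 the PSI-475 root libraries lie between 353 and 460.0 FPKM, below the untreated root libraries at 4172 to 4350.2 FPKM.

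The deepest differences sat at loci of moderate level. Solyc05g014590.3 had 0.0559, 0.0582 and 0 FPKM in PSI-475 root and 27.1, 31.5 and 28.7 FPKM in untreated root. Those PSI-475 values rest on 2 fragments against 1579, a ratio of 0.123% with a 95% counting interval of 0.0149% to 0.446%. The interval covers counting error only, as do those that follow. None of them allows for the choice of the loci by this same ratio.

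Solyc01g057080.1 had 0.328, 0 and 0.284 FPKM in PSI-475 root and 43.9, 47.9 and 44.2 FPKM in untreated root. Solyc12g057070.2 had 0.314, 0.123 and 0.170 FPKM in PSI-475 root and 32.9, 32.9 and 34.0 FPKM in untreated root. Solyc04g012050.3 had the highest untreated root level of the 10 deepest loci, with 0.867, 0.533 and 0.717 FPKM in PSI-475 root and 88.5, 85.0 and 89.5 FPKM in untreated root. In each of these 3 loci every PSI-475 root library was under 1 FPKM and every untreated root library above 30 FPKM.

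The other 6 of the 10 deepest loci were lower to begin with. Their untreated root means were 21.9 FPKM for Solyc03g114230.2, 16.2 for Solyc05g007950.3, 14.8 for Solyc05g009480.1, 14.1 for Solyc12g097000.2, 10.9 for Solyc02g087580.3 and 8.54 for Solyc02g070430.3. In PSI-475 root all 6 averaged between 0.0771 and 0.120 FPKM. Over the whole set 11 loci had 0 fragments in at least 1 PSI-475 root library, and 0 loci had none in all 3. Solyc05g009480.1 rested on 2 fragments against 301, a ratio of 0.647% with an interval of 0.0780% to 2.36%.

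At the limits of the selection the values were continuous. Just inside the limit on the ratio were Solyc03g083900.3 at 12.4% and Solyc08g067360.3 and Solyc03g119590.1 at 12.3%. Just outside it were Solyc03g111280.2 at 12.53%, Solyc06g008100.3 at 12.6% and Solyc02g079170.3 at 12.7%. Just inside the limit on level were Solyc03g113910.3, Solyc01g103660.3 and Solyc01g104725.1 at 7.003, 7.03 and 7.07 FPKM in untreated root. Just outside that limit, among loci low enough with PSI-475, came Solyc02g084160.2 at 6.79 FPKM and a pair of numbered loci at 6.74 and 6.73 FPKM.

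Scaling moved the size of the set. With median-of-ratios scaling, which sets libraries to a common median locus, the median log2 difference of all loci reaching 7 FPKM, on the log2(FPKM + 1) scale, moved to -0.09, against 0.18 as deposited. All 240 loci still met the conditions, the number of such loci became 319, and the median level left was 5.71%. Relative to the median locus that level was 6.11% under both scalings. Dividing by the median locus largely cancels any scaling of whole libraries, so this agreement is no separate finding.

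The set was mostly low in leaf. Untreated root exceeded untreated leaf at 231 of the 240 loci (96.3%), against 54.1% of all loci reaching 7 FPKM in untreated root. It exceeded leaf more than 4-fold at 202 loci (84.2%, against 14.8%) and more than 16-fold at 137 loci (57.1%, against 6.02%). The median untreated leaf level was 3.99% of the untreated root level in the set and 93.1% over all those loci. Among the 359 loci lowered 4-fold to under 8-fold in PSI-475 root, 96.4% had more in untreated root than in untreated leaf. Both conditions of the selection used the untreated root mean. The loci set beside these counts passed the same minimum but not the fold condition, which itself favours loci high in untreated root. How much of the difference from leaf follows from that condition was not tested, and neither were the counts.

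In untreated leaf 89 loci of the set (37.1%) averaged under 1 FPKM, against 4.09% of all loci past the same minimum. The set's medians in leaf were 2.29 FPKM with PSI-475 and 1.98 FPKM untreated. At 0 fragments in every leaf library were 7 loci. Untreated root was the highest of the 4 groups at 228 loci, and PSI-475 root was the lowest of the 4 at 102. The selection fixes untreated root above PSI-475 root at every locus, so both counts in part restate it, and no background was taken for them.

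With PSI-475 the order of the tissues changed for many of them. PSI-475 root exceeded PSI-475 leaf at 123 loci (51.3%), against 70.3% of all loci past the minimum. Root was above leaf in untreated plants and below leaf in sprayed plants at 108 loci (45.0%, against 8.45%). The difference in root alone can produce that change, so it is no separate finding.

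**Figure D3:**
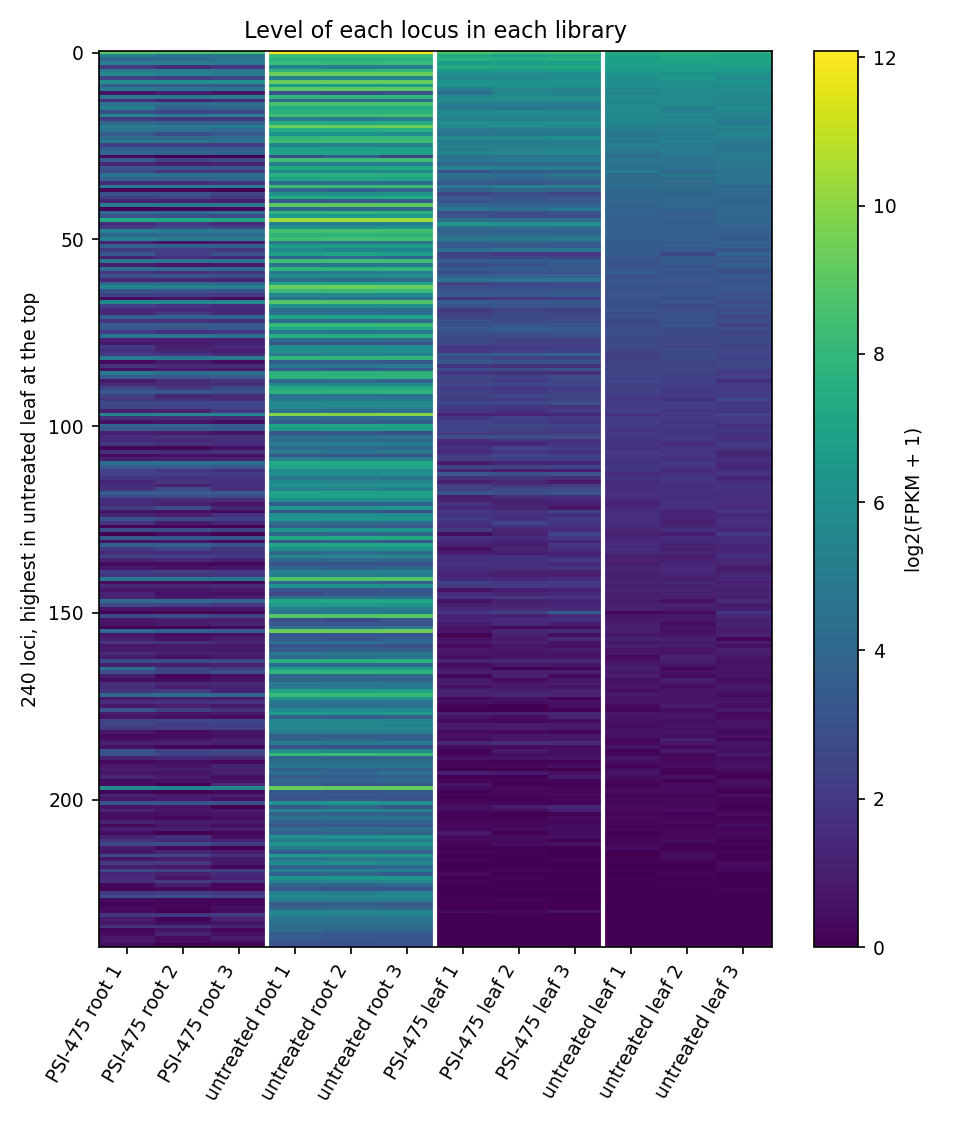
Level of each of the 240 loci (rows, highest in untreated leaf at the top) in the 12 libraries (columns, by group), coloured by log2(FPKM + 1). Untreated root is the highest group at 228 loci, its place above PSI-475 root being fixed by the selection, and most rows are low in both leaf groups.

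The level left in root was also described by the level in untreated leaf. The 89 loci under 1 FPKM in untreated leaf had a median of 4.61% left in PSI-475 root, the 98 loci at 1 to 10 FPKM a median of 7.43%, and the 53 loci with at least 10 FPKM a median of 8.68%. The 3 classes also differed in untreated root level, with medians of 20.2, 41.9 and 172 FPKM. The part of that level in the order was not tested.

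At 9 loci untreated leaf was above untreated root, and they are named after their values were seen. Solyc07g043230.3 was at 3.42, 1.89 and 3.00 FPKM in PSI-475 root and 38.7, 35.5 and 33.4 FPKM in untreated root, but at 165, 152 and 159.8 FPKM in PSI-475 leaf and 104, 107 and 109.7 FPKM in untreated leaf. The lowest leaf library was therefore above the highest root library. Solyc12g097000.2 was at 0.115, 0.120 and 0.0499 FPKM in PSI-475 root and 15.98, 12.2 and 14.2 FPKM in untreated root. In leaf it was at 12.5, 15.3 and 12.7 FPKM with PSI-475 and 15.7, 16.9 and 16.5 FPKM untreated, so leaf levels were close to those of untreated root while PSI-475 root was under 1 FPKM. The other 7 were Solyc09g092520.3, Solyc03g113910.3, Solyc04g077270.3, Solyc07g056320.3, Solyc01g104725.1, Solyc01g103470.2 and Solyc12g042600.2.

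The leaf libraries took no part in the selection, so the effect of the spray in leaf was tested. The test was limma on log2(FPKM + 1) over all 18405 loci that averaged 1 FPKM or more in leaf, with p-values adjusted by Benjamini-Hochberg and called under 0.05. Of the 240 loci 156 passed that filter and 84 were too low to test. In PSI-475 leaf 46 of the 156 rose (29.5%, limma), against 13.5% of all loci tested. In the same comparison 25 fell (16.03%), against 18.8% of all loci tested, and 85 did not pass the threshold.

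Among loci reaching 7 FPKM in untreated root, 11.4% rose and 23.9% fell. The share of the set that rose was above both backgrounds, and in this fit the share that fell was below both. The order of the falls against all loci tested depended on the settings. With median-of-ratios scaling 21 of 157 fell in the set and 2279 of 18410 over all loci, so the set's share was the higher. It was also higher with the replicate block (25 of 156 against 2440 of 18405) and without PSI-475 leaf replicate 1 or 3, and lower in the other alternatives. The median log2 change was 0.14 over the 156 loci, against -0.09 over all loci tested and -0.13 over the loci reaching 7 FPKM in untreated root. The median of the set was 0.0308 with no filter, 0.0859 with a mean of at least 5 FPKM and 0.21 with median-of-ratios scaling. Called changes of at least 2-fold on this scale were 10 rises among the 156 loci, against a background of 2.6%, and 4 falls, against 1.15%. As shares of the 156 both were above their backgrounds, unlike the share of all called falls in the main fit. All 3 PSI-475 leaf libraries were above all 3 untreated ones at 60 of the 156 loci (background 18.7%) and below them at 40 (background 29.2%). The rises numbered 27 without PSI-475 leaf replicate 2 and also 27 without PSI-475 leaf replicate 3. Of the 46 rises 26 were called in all 6 fits that left out 1 library, and of the 25 falls 16 were.

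**Figure D4:**
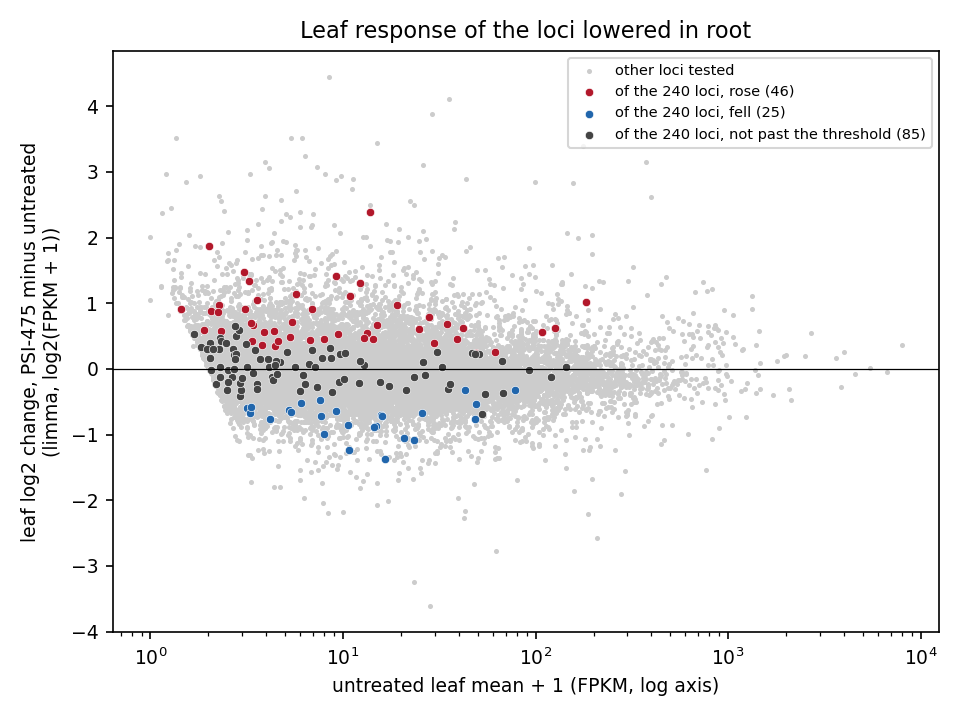
Leaf log2 change of PSI-475 minus untreated leaf on the log2(FPKM + 1) scale (vertical, limma) against the untreated leaf mean plus 1 FPKM (horizontal, log axis), for all 18405 loci tested, with the 156 of the set coloured by their call. The 46 that rose, the 25 that fell and the 85 not past the threshold occur across most of the set's range of leaf levels, and their changes run from -1.38 to 2.38.

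Solyc03g096780.1 had the largest rise in leaf and lies next to another riser on chromosome 3. It was at 80.4, 65.1 and 66.9 FPKM in PSI-475 leaf, against 13.1, 11.1 and 14.1 FPKM in untreated leaf, and its log2 change was 2.38 (SE 0.113, limma adjusted p = 7.15e-06). In root the same locus was at 1.97, 3.24 and 1.70 FPKM with PSI-475 and 34.9, 34.3 and 34.6 FPKM untreated. The leaf libraries were apart in one direction and the root libraries in the other.

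Solyc05g006220.3 was at 24.4, 23.0 and 23.3 FPKM in PSI-475 leaf and 8.38, 8.62 and 7.69 FPKM in untreated leaf, and its log2 change was 1.41 (SE 0.081, limma adjusted p = 1.8e-05). Solyc03g111300.1 was at 8.54, 6.25 and 8.09 FPKM in PSI-475 leaf and 2.07, 2.05 and 2.09 FPKM in untreated leaf, and its log2 change was 1.48 (SE 0.130, limma adjusted p = 0.000139). Solyc02g089630.3 was at 8.16, 6.37 and 7.03 FPKM in PSI-475 leaf and 1.89, 2.21 and 2.67 FPKM in untreated leaf, and its log2 change was 1.33 (SE 0.136, limma adjusted p = 0.00029). None of these 3 overlapped between the leaf groups.

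Solyc05g014590.3, the locus with the least left in root, was at 2.93, 4.17 and 11.7 FPKM in PSI-475 leaf and 0.153, 0.274 and 2.61 FPKM in untreated leaf. Its log2 change, 1.87 with an SE of 0.528 (limma adjusted p = 0.0291), rested on groups that did not overlap but spread widely within themselves, replicate 3 being the highest in both. The call was lost in 5 alternatives, 4 of which left out 1 library (limma adjusted p from 0.0545 to 0.0916).

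The locus with the most RNA in untreated root also rose in leaf. Solyc01g095140.3 was at 400.4, 342 and 360.4 FPKM in PSI-475 leaf, against 161, 206 and 177 FPKM in untreated leaf, and its log2 change was 1.02 (SE 0.102, limma adjusted p = 0.000271). The 240 loci together held 0.397 ± 0.00996% of the fragments in PSI-475 leaf and 0.350 ± 0.00612% in untreated leaf (SD, n = 3 each). Without that locus the shares were 0.376 ± 0.0109% and 0.339 ± 0.00485%.

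Further rises among the loci named above were Solyc05g007950.3 (23.1 ± 2.94 FPKM in PSI-475 leaf and 14.1 ± 0.607 in untreated leaf, SD, n = 3 each, limma adjusted p = 0.00216) and Solyc07g043230.3, with a log2 change of 0.57 (limma adjusted p = 0.000421). Solyc02g081030.3 rose by 0.46 (limma adjusted p = 0.00566) and Solyc06g050140.1 by 0.45 (limma adjusted p = 0.0121, but 0.0642 with limma-voom), both as log2 changes.

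Of the 5 loci highest in untreated leaf, Solyc01g095140.3, Solyc07g043230.3 and Solyc03g096290.3 rose. Solyc03g096290.3 was at 206, 179.9 and 195 FPKM in PSI-475 leaf, against 114, 131 and 132 FPKM in untreated leaf (log2 change 0.62, limma adjusted p = 0.00113). The other two did not pass the threshold, Solyc03g116700.3 averaging 145 ± 15.0 FPKM in PSI-475 leaf and 142 ± 17.6 in untreated leaf, and Solyc06g068960.1 averaging 108 ± 1.77 and 119 ± 6.73 FPKM (SD, n = 3 each).

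Falls in leaf were led by Solyc02g089515.1. It was at 4.84, 6.52 and 4.76 FPKM in PSI-475 leaf, against 15.7, 14.01 and 16.7 FPKM in untreated leaf, and its log2 change was -1.38 (SE 0.129, limma adjusted p = 0.000192). Solyc01g103470.2 was at 9.03, 8.03 and 10.0 FPKM in PSI-475 leaf and 19.1, 18.8 and 21.5 FPKM in untreated leaf, and its log2 change was -1.05 (SE 0.102, limma adjusted p = 0.000228). The leaf libraries did not overlap at either locus, and both loci were lower with the spray in leaf and in root.

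A numbered locus outside the tomato scheme averaged 9.82 ± 2.20 FPKM in PSI-475 leaf and 22.4 ± 7.39 FPKM in untreated leaf (SD, n = 3 each, limma adjusted p = 0.01), and Solyc04g009640.3 averaged 2.99 ± 0.280 and 6.95 ± 1.14 FPKM (limma adjusted p = 0.00125). Solyc03g020010.1 was at 4.53, 2.81 and 2.77 FPKM in PSI-475 leaf and 10.6, 5.07 and 13.5 FPKM in untreated leaf (log2 change -1.23, limma adjusted p = 0.0185). That call was lost when PSI-475 leaf replicate 2, PSI-475 leaf replicate 3 or untreated leaf replicate 1 was left out (limma adjusted p from 0.0567 to 0.0647). Among the loci highest in untreated root, Solyc12g057060.2 and Solyc10g055200.1 fell in leaf, with log2 changes of -0.77 and -0.32 (limma adjusted p = 0.0194 and 0.0131). The first was lost without PSI-475 leaf replicate 1 or 2 or untreated leaf replicate 2 (limma adjusted p from 0.0529 to 0.06), and the second without PSI-475 leaf replicate 3 or with median-of-ratios scaling (limma adjusted p = 0.065 and 0.0688).

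Some of the lowered loci lay side by side. Counting loci of one chromosome with identifier numbers at most 50 apart as a run, 56 of the 232 loci of the tomato scheme (24.1%) fell into 25 runs, 21 of them pairs, 3 of 3 loci and 1 of 5. At 16 of the 25 runs no other locus of the table stood between the members. Of the 716 loci reaching 7 FPKM in untreated root within that distance of a member, 56 (7.82%) were themselves members, against 2.27% of the 10202 such loci of the scheme. The identifiers were not used in the selection, and this difference was not tested.

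Most neighbours did not follow. The other 660 loci near a member had a median of 105% of their untreated root level left. At least 2-fold lower were 118 of them (17.9%), against 14.8% of all loci past the minimum. That background includes the set itself, lowered by the selection, while the 660 loci leave it out. The shares are therefore not over like loci, and the background is raised by the set. The level left differed by a median of 0.50 on the log2 scale within 31 neighbouring pairs, and by 0.90 over 24307 pairs on different chromosomes. Overlapping or near-identical neighbours could share reads, because no source used here gives the aligner or the strand setting.

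The longest run held 5 loci of chromosome 4, from Solyc04g081650.3 to Solyc04g081690.2. Solyc04g081655.1 was at 3.43, 5.95 and 1.65 FPKM in PSI-475 root, against 81.1, 68.3 and 79.8 FPKM in untreated root, and was the highest of the run. Solyc04g081660.2 was at 3.16, 5.11 and 2.61 FPKM in PSI-475 root and 61.4, 61.9 and 65.4 FPKM in untreated root. In the other three, Solyc04g081650.3, Solyc04g081670.3 and Solyc04g081690.2, PSI-475 root averaged 1.38, 0.929 and 0.459 FPKM and untreated root 27.5, 20.2 and 15.4 FPKM. The level left was 2.98% to 5.76% over the 5 loci, and none exceeded 2 FPKM on average in either leaf group.

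The runs of 3 lay on chromosomes 1, 2 and 11. On chromosome 11, Solyc11g072600.2, Solyc11g072620.1 and Solyc11g072630.2 averaged 31.9, 19.0 and 4.64 FPKM in PSI-475 root and 346, 231 and 47.6 FPKM in untreated root. Their levels left lay between 8.22% and 9.75%, a narrow range beside that of the set, although the untreated levels differed widely. Between them stood Solyc11g072610.2 and Solyc11g072615.1, low in untreated root at 1.67 and 2.63 FPKM. In leaf only Solyc11g072620.1 of this run was called, at 7.06 ± 0.993 FPKM with PSI-475 and 13.9 ± 3.42 FPKM untreated (SD, n = 3 each, limma adjusted p = 0.00615).

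On chromosome 2, Solyc02g084117.1, Solyc02g084163.1 and Solyc02g084167.1 averaged 0.461, 1.14 and 0.754 FPKM in PSI-475 root and 11.7, 16.3 and 19.1 FPKM in untreated root. They kept 3.94%, 6.97% and 3.94% of the untreated level. All 4 loci between them missed the minimum in untreated root. Solyc02g084120.2 averaged 0.238 FPKM in PSI-475 root and 5.18 FPKM in untreated root (4.599% left), and Solyc02g084160.2 averaged 0.654 and 6.79 FPKM (9.62% left). Solyc02g084140.2 and Solyc02g084150.1 were under 1 FPKM in both root groups and kept 48.0% and 29.0%. All 7 loci were under 1 FPKM on average in both leaf groups.

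The run on chromosome 1 was uneven. Solyc01g104750.3 and Solyc01g104780.3 averaged 0.465 and 1.71 FPKM in PSI-475 root and 10.5 and 18.8 FPKM in untreated root. Solyc01g104725.1, a short locus, had 0.252, 0 and 0 FPKM in PSI-475 root and 6.58, 10.8 and 3.88 FPKM in untreated root, which is 1 fragment against 85 (ratio 1.15%, interval 0.0287% to 6.56%). It was higher in leaf, at 23.3 ± 1.04 FPKM with PSI-475 and 25.6 ± 7.47 FPKM untreated (SD, n = 3 each). Between the last members lay Solyc01g104775.1, which kept 73.9% of its untreated root level, at 161 FPKM with PSI-475 and 218 FPKM untreated. Solyc01g104770.3, also between them, was lowered further and kept 22.7%, at 1.62 FPKM with PSI-475 and 7.14 FPKM untreated.

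**Figure D5:**
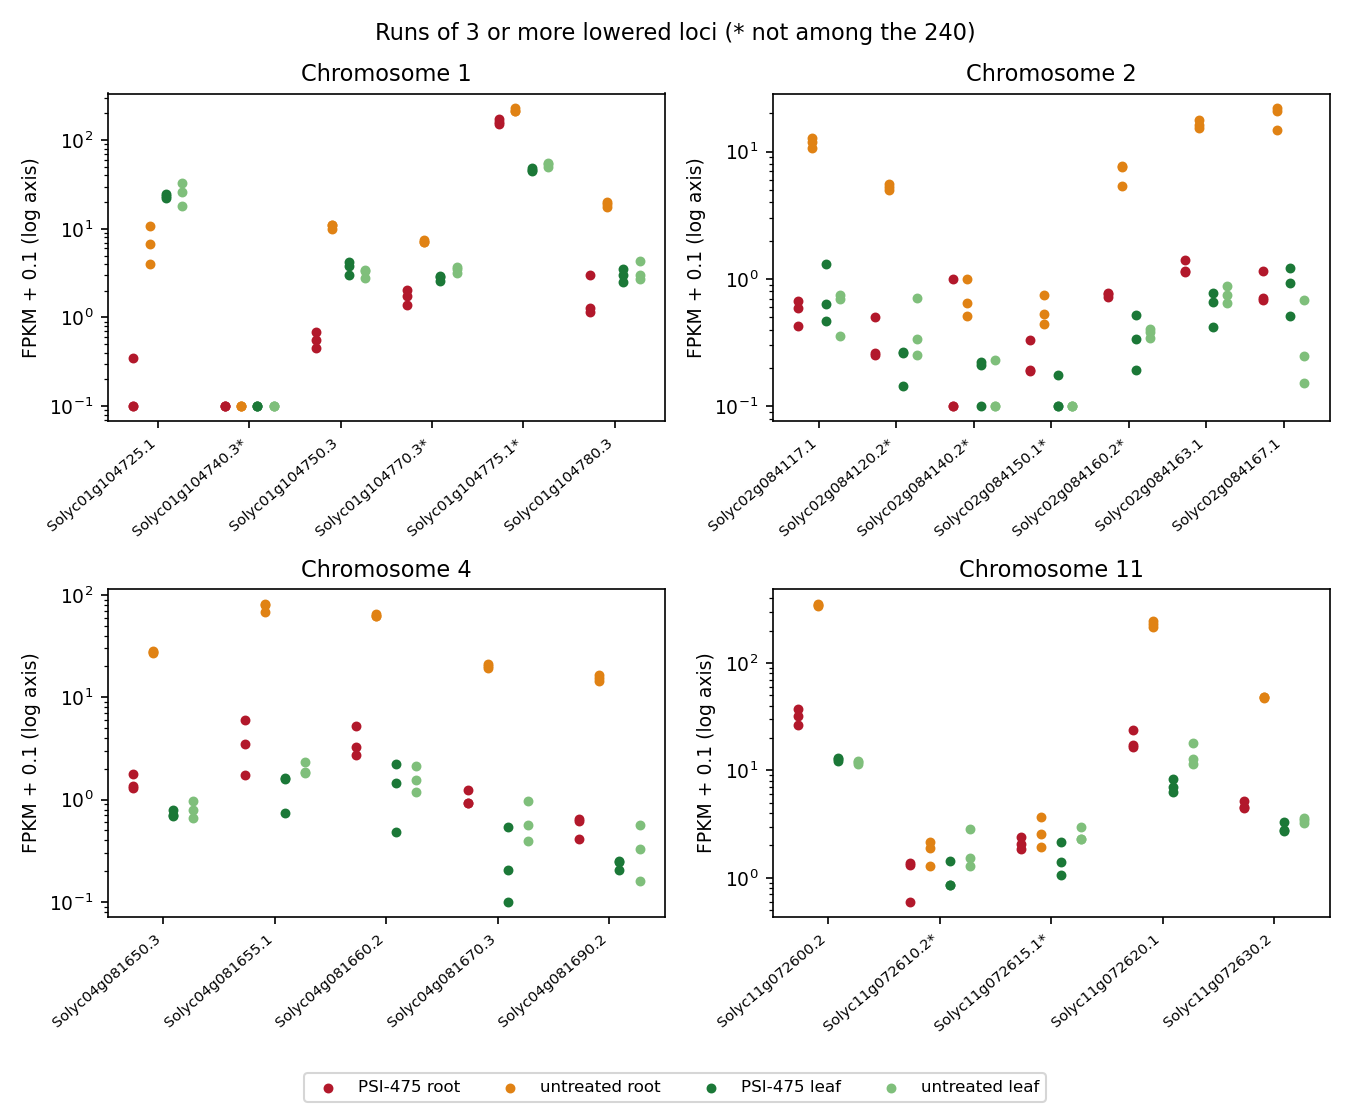
FPKM + 0.1 (log axis) in the 12 libraries for the 4 runs of 3 or more lowered loci and the loci between them (marked with an asterisk), 1 point per library and colour by group. In the run on chromosome 4 all 5 loci are lower in PSI-475 root, with 2.98% to 5.76% left. Between members on chromosome 1, Solyc01g104775.1 keeps 73.9% and Solyc01g104770.3 keeps 22.7%.

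Neighbours did not always share their depth or leaf response. Solyc12g057060.2 kept 4.82% of its untreated root level and the adjoining Solyc12g057070.2 kept 0.608%. Of the 56 loci in runs 34 were tested in leaf, where 6 rose (17.6%) and 7 fell (20.6%), near the 13.5% and 18.8% of all loci tested. A called locus occurred in 10 runs, and in 3 of those at least 2 members were called in one direction. Solyc03g096770.1 rose with Solyc03g096780.1, at 4.28, 2.75 and 3.42 FPKM in PSI-475 leaf and 1.32, 1.42 and 1.03 FPKM in untreated leaf (log2 change 0.98, limma adjusted p = 0.00291). Solyc02g089520.2 fell with Solyc02g089515.1 (log2 change -0.71, limma adjusted p = 0.00642), and Solyc06g075330.2 fell with Solyc06g075335.1 (log2 changes -0.67 and -0.60, limma adjusted p = 0.024 and 0.0269). The call of Solyc06g075330.2 was lost without PSI-475 leaf replicate 2 or 3 or untreated leaf replicate 1 (limma adjusted p from 0.0715 to 0.0803). That of Solyc06g075335.1 was lost without PSI-475 leaf replicate 1 or 3 or untreated leaf replicate 1 or 2 and with limma-voom (limma adjusted p from 0.055 to 0.115). These pairs are named after their values were seen.

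Over the chromosomes the set was spread unevenly but broadly. Every one of the 12 chromosomes held between 8 and 35 of the loci. As a share of the loci reaching 7 FPKM in untreated root, members ran from 1.26% on chromosome 11 to 3.33% on chromosome 4, with 3.23% on chromosome 2 and 3.00% on chromosome 12. The loci were also shorter, with a median of 1268 bases against 1614 bases for all loci past the minimum, and 15.0% against 9.73% were under 500 bases. These lengths were recovered from the values and may be too small for single loci.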

How the data were processed

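The deposited table holds FPKM made by the authors for 35976 loci in 12 libraries. Per the submitters' processing notes, fastp, featureCounts and DESeq2 were used, with no version named. No source used here gives the aligner, the build or the strand setting. Whole fragments, locus lengths and library totals were recovered from the digits of the FPKM values: 100% of values came out whole within 0.001, and the sums reached at least 99.99% of the totals, from 17108347 to 22993130. Where all counts at a locus have a common divisor it is lost, which can make a length and its counts too small.

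The loci were taken by means of the raw FPKM (at least 7 in untreated root, and PSI-475 root at most 12.5% of it), so root and tissue differences are described without a test. The members and lists were chosen with earlier results of these data known. The leaf model was fitted in R 4.3.3 with limma 3.58.1 and its trend option to log2(FPKM + 1) of loci averaging 1 FPKM or more over the 6 leaf libraries, 2-sided. P-values were adjusted by Benjamini-Hochberg over all loci tested, with a threshold of 0.05. The procedure was tested on simulated data with the same dispersion at all loci and fewer changed loci than were called here. The error rate of the calls in these data was not tested by it. Counting intervals are exact at 95% for counting error only, with no allowance for the selection of the loci by the same root values.

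Named are the 10 loci highest in untreated root, the 10 with the least left, up to 5 called leaf rises and 5 falls by log2 change, runs of 3 or more, the loci at the limits and the 5 highest in untreated leaf. Planned gene lists and tissue markers needed names, and 0 of 35976 identifiers matched the RefSeq table for SLM_r2.1, so they were not evaluated. Replicate pairs differed beyond sampling noise (chi-square over degrees of freedom from 2.21 to 17.4), so all libraries were kept. Alternatives varied the scaling, filter, pseudocount, limits, run distance, replicate block and libraries. Figures were drawn with matplotlib 3.10.9.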

Additional observations from a re-analysis of the deposited data

Results flagged for a closer look

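At 19 of the 60 named loci of the set, all 3 PSI-475 leaf libraries lay above all 3 untreated leaf libraries, while all 3 PSI-475 root libraries lay below all 3 untreated root libraries. The difference between the tissues was not tested, because the root libraries chose the loci. Of the 19 loci 5 were named for their leaf rise, so the count in part restates that choice. Solyc03g096770.1 was also named for a leaf rise, the one it had in common with its neighbour, after the values were seen. Among all loci tested in leaf, 18.7% had their PSI-475 libraries above the untreated ones. Only 48 of the 60 named loci were tested there, and 3 of the 19 were not, so that share is not over like loci. The leaf log2 changes were 2.38 for Solyc03g096780.1, 1.87 for Solyc05g014590.3, 1.48 for Solyc03g111300.1, 1.41 for Solyc05g006220.3, 1.33 for Solyc02g089630.3 and 1.02 for Solyc01g095140.3. They were 0.98 for Solyc03g096770.1, 0.67 for Solyc05g007950.3, 0.62 for Solyc03g096290.3, 0.60 for Solyc01g103660.3, 0.57 for Solyc07g043230.3, 0.54 for Solyc03g083900.3, 0.46 for Solyc02g081030.3, 0.45 for Solyc06g050140.1 and 0.25 for Solyc04g077270.3. Solyc01g103660.3 (limma adjusted p = 0.0185) and Solyc04g077270.3 (limma adjusted p = 0.033) lost their call in several fits that left out 1 library. The call of Solyc04g077270.3 was also lost with the replicate block and with all 12 libraries fitted together (limma adjusted p = 0.0966 and 0.123). For Solyc02g087580.3 the change of 0.15 did not pass the threshold (limma adjusted p = 0.378). The other 3 loci averaged under 1 FPKM over the 6 leaf libraries and were not tested, with PSI-475 leaf means of 0.358 FPKM for Solyc01g057080.1, 0.0731 FPKM for Solyc12g057070.2 and 1.25 FPKM for Solyc04g012050.3. Over the 156 loci tested in leaf, 60 had this pattern, and the direction in root is fixed by the selection.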

How the results depend on the processing

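Over all loci, leaf calls were 2481 rises and 3464 falls, against 2958 and 2279 with median-of-ratios scaling, and 2022 to 3887 falls with 1 library left out. Rises in the set were 28 of 80 tested (35.0%) with a mean of at least 5 FPKM, and 27 to 46 with 1 library left out, against 46 of 156 (29.5%). The median log2 change, 0.14, was 0.17 with a pseudocount of 0.1, 0.0308 with no filter, 0.0859 with at least 5 FPKM and 0.21 with median-of-ratios scaling, and 0.11 to 0.18 with 1 library left out. The root median left was 5.71% with that scaling. Runs held 34 loci at a distance of at most 10. The number of loci meeting the conditions ran from 171 to 356 over the alternatives. Of 606 leaf values of named loci under alternatives, 544 kept direction and side of the threshold, 41 lost the call, 9 gained one and 12 changed sign. Those 12 belonged to 6 loci that were not called. Solyc05g009480.1 was at 0.0318 with median-of-ratios scaling. With 1 library left out it ran from -0.54 to 0.44, Solyc03g116700.3 from -0.0399 to 0.13, Solyc01g104725.1 from -0.31 to 0.10, Solyc01g104780.3 from -0.22 to 0.0352, Solyc04g081660.2 from -0.46 to 0.13 and Solyc08g067360.3 from -0.0628 to 0.11. The cause of these shifts was not tested.

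The labels do not say what a shared replicate number marks. Deviations of leaf libraries with the same number correlated at -0.237, 0.114 and -0.105, which shows no pairing but, with 3 libraries per group, cannot exclude it. With the replicate block the set had 39 rises and 25 falls, and all loci 2054 and 2440. Depth limits the PSI-475 root values, with 17 loci under 10 fragments over 3 libraries.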

Other observations

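The same levels were taken for the 359 loci lowered 4-fold to under 8-fold in PSI-475 root. In untreated leaf 17.8% of them averaged under 1 FPKM, against 37.1% of the set, and 72.4% had more than 4 times as much in untreated root as in untreated leaf, against 84.2%. Untreated root was above untreated leaf at 96.4% of them, against 96.3% of the set, and root was above leaf untreated and below leaf with PSI-475 at 40.4%, against 45.0%. In leaf 103 of the 301 tested rose (34.2%, limma) and 36 fell (11.96%), against 29.5% and 16.03% in the set and 13.5% and 18.8% of all loci tested. These shares were not tested against each other.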
